A study of Homo sapiens with 12 samples.

Results

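The background of an RNA immunoprecipitation experiment was compared between 2 forms of the breast cancer line MDA-MB-231. This was done with the 6 libraries precipitated with normal rabbit IgG, of 12 libraries in the series. All 6 libraries that carry this antibody label were used. The Sens group (3 libraries) came from parental cells, labelled wild type with no treatment. The Res group (3 libraries) came from cells with established resistance to BET inhibitors (BETi), kept under the inhibitor until harvest, so resistance and ongoing exposure cannot be told apart. The inhibitor is not named in the labels. The other 6 libraries, 3 from each line, were made with an anti-IGF2BP2 antibody (IGF2BP2 binds RNAs and affects how long they last and how well they are translated). Equal lysates and equal amounts of antibody were used in every group. The labels do not say whether replicates were separate cultures or precipitations, so p-values measure a spread between libraries that may be technical.

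The deposited table gives read counts for 6384 circular RNAs (circRNAs) and 57 ERCC transcripts, synthetic RNAs added to the purified RNA. It holds no linear transcripts, so the identity of the line was not checked against marker genes. The table does not pair circRNA identifiers with host genes, so no host gene is named, few identifiers are printed, and no sequence is shown.

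circRNAs are closed loops made by back-splicing, in which the end of an exon is joined to the start of the same or an upstream exon. With no free ends they escape exonucleases and tend to be long-lived. IgG of an unimmunised animal has no chosen target, so the RNA recovered with it is what sticks to the beads, the tube and immunoglobulin in general. In this study each line has its own IgG libraries, the background for the IGF2BP2 libraries of that line. MDA-MB-231 is a triple-negative breast cancer line, and BET inhibitors keep bromodomain and extra-terminal proteins from reading acetylated chromatin.

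The Res IgG libraries held more kinds of circRNA than the Sens IgG libraries. In Sens IgG, 441, 407 and 434 circRNAs had at least 1 count in replicates 1, 2 and 3, and in Res IgG 1039, 1109 and 1138 did. Every Res library lay above every Sens library, with means of 427 ± 18.0 and 1095 ± 50.9 (SD, n = 3 each), a ratio of 2.56. The circRNA counts behind these numbers were 2989, 1960 and 2845 in Sens and 3860, 5396 and 6036 in Res. With every library of the series thinned at random to 1960 circRNA counts, the smallest total, the numbers were 409 ± 3.46 in Sens and 817 ± 5.03 in Res (SD, n = 3 each), a ratio of 2.00. Counts were spread over more circRNAs in Res: the 10 most abundant took 23.5% ± 1.68 of circRNA counts in Sens and 7.57% ± 0.439 in Res (SD, n = 3 each). Much of the Sens share lay in 1 circRNA, hsa_circ_0001573, which alone took 15.3% in Sens and 0.12% in Res. Against the ERCC spike-in, circRNA counts per 1000 ERCC counts were 22.0 ± 0.267 in Sens and 68.2 ± 1.73 in Res (SD, n = 3 each). The groups did not overlap in any of these measures (two-sided exact permutation p = 0.1 each, the smallest that 3 against 3 libraries allow, and 0.12 after adjustment over 6 measures). ERCC counts were 133928, 89886 and 129711 in Sens and 56042, 77725 and 91178 in Res. These overlapped (exact permutation p = 0.2, adjusted p = 0.2).

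**Figure D1:**
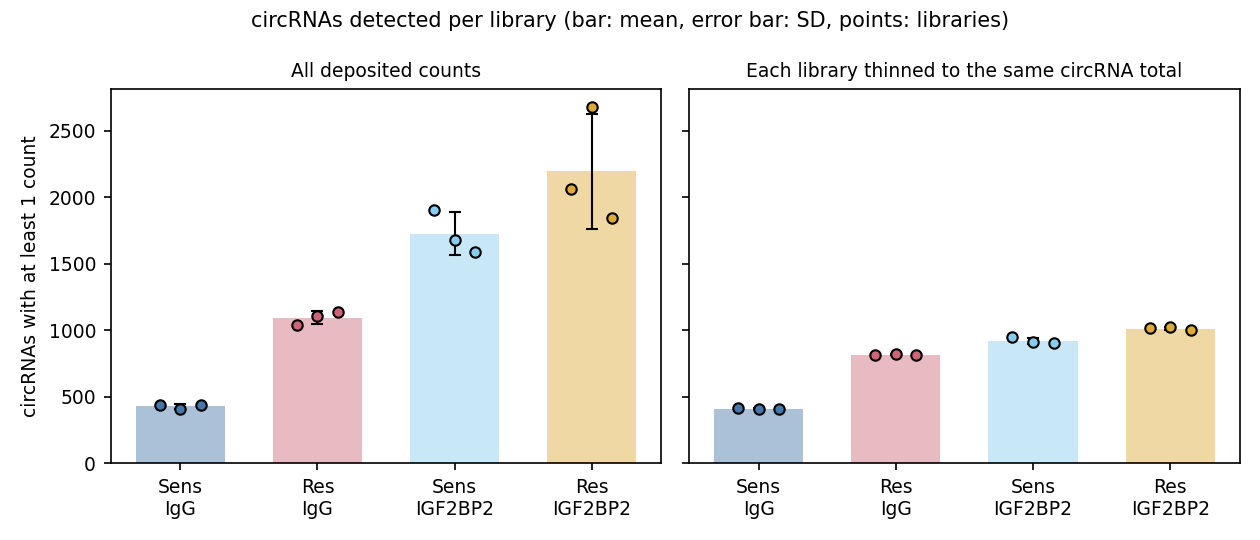
Number of circRNAs with at least 1 count in each library (y axis) for the 4 groups (x axis), from all counts (left) and after thinning each library to 1960 circRNA counts (right). Bars are means, error bars SDs and points single libraries. All 3 Res IgG libraries lie above all 3 Sens IgG libraries in both panels.

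The 2 lines shared few of these circRNAs, while libraries of 1 line shared most of theirs. In all, 1565 circRNAs were detected in IgG. Of these, 322 were seen only in Sens, 1090 only in Res and 153 in both lines. The 153 were 32.2% of the circRNAs of Sens IgG and 12.3% of those of Res IgG. Among circRNAs detected in either library of a pair, the 3 pairs within Sens IgG shared 81.6% to 87.0% and the 3 pairs within Res IgG 79.6% to 82.5%. The 9 pairs made of a Sens and a Res library shared 8.23% to 9.81%. After thinning, the ranges were 80.2% to 83.3% within Sens, 55.8% to 58.0% within Res and 8.23% to 9.20% between lines. Counts on circRNAs that the other line's IgG lacked made up 50.3%, 49.9% and 52.0% of circRNA counts in the Sens libraries and 76.3%, 76.1% and 75.6% in the Res libraries.

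In the IGF2BP2 libraries the shares of pairs within and between lines lay close together. Their pairs shared 25.1% to 27.4% within Sens, 28.6% to 31.2% within Res and 23.4% to 25.4% between lines. Of the circRNAs in Sens IGF2BP2, 55.8% were also in Res IGF2BP2, and of those in Res IGF2BP2, 45.5% were also in Sens IGF2BP2. These are descriptions of library pairs that share libraries, and no test was made of them.

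**Figure D2:**
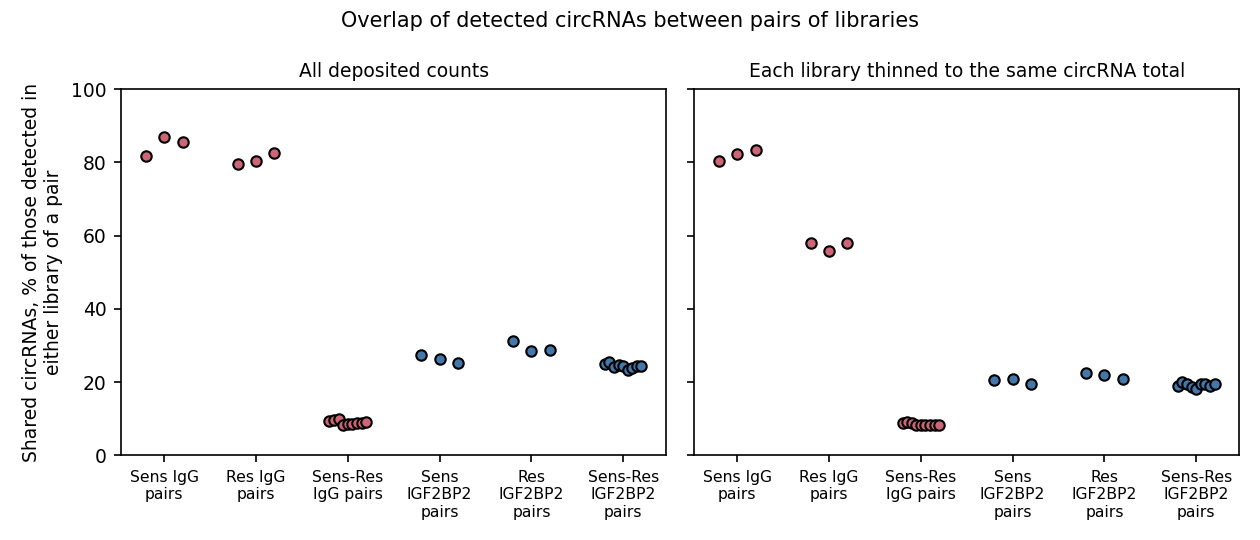
Percentage of circRNAs detected in either library of a pair that were detected in both (y axis), for pairs within a group and pairs of 1 Sens and 1 Res library (x axis), from all counts (left) and after thinning (right). Each point is 1 pair. IgG pairs within a line lie far above IgG pairs between lines, whereas the IGF2BP2 pairs all lie between 23.4% and 31.2% in the left panel.

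circRNAs found with IgG were less often found once than those found with IGF2BP2. Of the 475 circRNAs of Sens IgG, 369 (77.7%) were in all 3 libraries and 29 (6.11%) had a single count over the group. Of the 1243 circRNAs of Res IgG, 895 (72.0%) were in all 3 and 59 (4.75%) had a single count. With IGF2BP2, 13.3% of 3487 circRNAs in Sens and 16.3% of 4274 in Res were in all 3 libraries, and 52.7% and 45.7% had a single count. A detected circRNA had a median of 12 summed counts in Sens IgG and 9 in Res IgG, against 1 and 2 in the IGF2BP2 groups. Among circRNAs with 6 to 9 summed counts the share seen in all 3 libraries was 76.1% in Sens IgG and 73.3% in Res IgG, and 70.6% in Sens and 62.3% in Res with IGF2BP2. The shares over all detected circRNAs depend on depth. After thinning, 73.7% in Sens IgG and 40.9% in Res IgG were in all 3 libraries, and 4.97% and 14.0% had a single count. With IGF2BP2, 9.67% in Sens and 10.6% in Res were in all 3, and 64.6% and 61.7% had a single count. No test was made of these shares. Replicates of a group differed somewhat more than sampling alone would give, with a chi-square per degree of freedom of 1.37 to 1.51 within Sens IgG and 1.28 to 1.45 within Res IgG, where 1 is sampling noise. The pairs between lines gave 12.5 to 14.9. With IGF2BP2 the values were 1.13 to 1.58 within Sens, 1.51 to 1.93 within Res and 7.32 to 7.87 between lines. On this measure pairs between lines thus lay above pairs within a line with both antibodies. The measure adds up over circRNAs, so hsa_circ_0001573, abundant in Sens alone, weighs heavily on every pair between lines. It was not computed without that circRNA.

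Single circRNAs were then tested with edgeR's quasi-likelihood test on the 6 IgG libraries. Counts were scaled by TMM, which takes most circRNAs detected on both sides as unchanged, and levels are given as CPM, a circRNA's count divided by the scaled library size and multiplied by 1000000. The test took the 804 circRNAs that reached 2 counts in 3 or more of the 6 libraries. A call is an adjusted p under 0.05 by the Benjamini-Hochberg method. In all, 516 circRNAs (64.2% of those tested) were called higher in Res IgG and 206 (25.6%) lower, together 89.8%. The groups did not overlap for 720 of the 804. With no filter 1290 of 1565 circRNAs (82.4%) were called. Of the 804, 492 reached 2 counts in every Res library and in no Sens library, and 185 the reverse. A circRNA that enters the test in this way has to differ, and all 677 were called. The other 127 had at least 2 counts in some library of each group, and of these 24 were called higher, 21 lower and 82 not. Counts were low, with a median of 16 summed over the 6 libraries (quartiles 11 and 22.25).

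**Figure D3:**
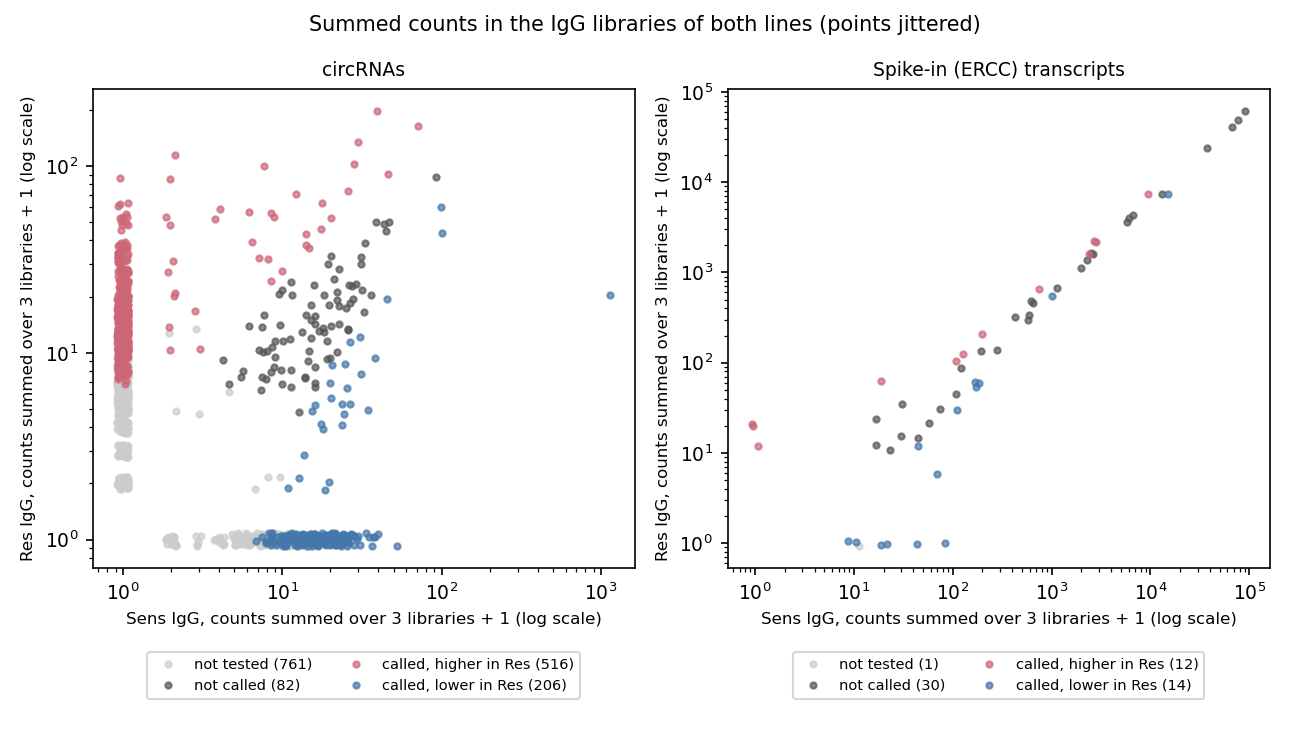
Counts summed over the 3 Res IgG libraries (y axis) against counts summed over the 3 Sens IgG libraries (x axis), each plus 1 on a log scale, for circRNAs (left) and ERCC transcripts (right). Colours give the edgeR call. Most called circRNAs lie along the axes, with 0 counts in 1 line, and 9 called ERCC transcripts lie there too.

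Among the called circRNAs, most had no count at all in the other line. Of the 516 higher in Res IgG, 480 had 0 counts in Sens IgG, 14 had 1 to 3 and 22 had more. Of the 206 lower, 179 had 0 counts in Res IgG, 8 had 1 to 3 and 19 had more. A group at 0 allows up to 3 counts over its libraries, so these folds are lower bounds. The bounds rest on TMM-scaled library sizes and would change with another scaling, for which they were not computed. For the 480 the bound ran from 2.04-fold to 28.9-fold with a median of 4.76, and they had a median of 14 summed counts in Res. For the 179 it ran from 1.96-fold to 15.7-fold with a median of 5.23, and they had a median of 16 summed counts in Sens. For the 22 higher circRNAs with over 3 counts on the low side the log2 fold change was 0.88 to 3.84 (median 1.80). For the 19 lower ones it was 0.76 to 5.91 in size (median 1.89).

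hsa_circ_0087960, which had the lowest p among circRNAs raised from 0, was counted 0, 0 and 0 times in Sens IgG and 13, 42 and 30 times in Res IgG. With TMM scaling it was therefore at least 28.9-fold higher in Res. It is one of the 492 that reached the filter through Res alone and had to differ, so its p in this fit is not given as support. It was the only circRNA of the 6 described here that was also absent from the Sens IGF2BP2 libraries, and it had 9, 7 and 5 counts in Res IGF2BP2. There too it had no count in Sens and reached the filter through Res alone.

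hsa_circ_0000437 had the lowest p among circRNAs that rose and had counts in all 6 IgG libraries. It was counted 4, 1 and 2 times in Sens IgG and 30, 28 and 45 times in Res IgG, or 621 ± 373 and 9612 ± 1845 CPM (SD, n = 3 each). The groups did not overlap, and Res exceeded Sens 15.5-fold (adjusted p = 8.38e-14, edgeR; log2 fold change 3.84, SE 0.48). The size of the rise depends on scaling. On the log2 scale hsa_circ_0000437 was at 2.88 with column totals and 4.46 with ERCC totals. On the same counts DESeq2 gave it an adjusted p of 3.20e-05, and edgeR with the replicate number as a block 0.0017. With IGF2BP2 it had 8, 5 and 5 counts in Sens and 12, 17 and 10 in Res. There the log2 fold change was 0.67 (SE 0.38), which was not called (adjusted p = 0.40, edgeR).

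hsa_circ_0001573 had the lowest p of all and fell in Res. It was counted 426, 324 and 430 times in Sens IgG, where it took 15.3% of circRNA counts, and 4, 5 and 10 times in Res IgG. In CPM it stood at 107875 ± 2644 and 1722 ± 634 (SD, n = 3 each), a 62.6-fold fall (adjusted p = 5.90e-101, edgeR; log2 fold change -5.91, SE 0.26). The size of the fall depends on scaling. On the log2 scale hsa_circ_0001573 was at -6.92 with column totals and -5.30 with ERCC totals. On the same counts DESeq2 gave it an adjusted p of 1.01e-27, and edgeR with the replicate number as a block 2.47e-05. With IGF2BP2 it had 650, 556 and 518 counts in Sens and 7, 7 and 6 in Res. Without it, edgeR called 723 circRNAs in place of 722.

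hsa_circ_0019610 had the lowest p among circRNAs with no count in Res IgG, yet only 2, 2 and 2 counts in Sens IgG. The bound on its fold was 1.96 with TMM scaling. It is one of the 185 that reached the filter through Sens alone and had to differ, so the following p-values only compare methods. Its adjusted p was 7.95e-14 with edgeR. On the same counts it was 0.0048 with edgeR's older deviance and 0.054 with DESeq2, where the call was lost. It was also lost with the replicate number as a block (edgeR, adjusted p = 0.082).

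The 2 most abundant circRNAs with no call were hsa_circ_0001380 and hsa_circ_0083176. hsa_circ_0001380 was counted 34, 32 and 24 times in Sens IgG and 19, 32 and 31 times in Res IgG, a log2 fold change of -0.13 with an approximate 95% interval of -0.74 to 0.48. hsa_circ_0083176 was counted 17, 14 and 16 times in Sens and 16, 13 and 19 times in Res, a log2 fold change of 0.06 (interval -0.68 to 0.81). In both, the libraries of the lines overlapped. These intervals do not show that the levels were equal. The sign of both depends on scaling: hsa_circ_0001380 was at 0.49 with ERCC totals, and hsa_circ_0083176 was at -0.93 with column totals, where it was called lower (adjusted p = 0.013, edgeR). With column totals hsa_circ_0001380 was also called lower (log2 fold change -1.14, adjusted p = 0.00029, edgeR).

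**Figure D4:**
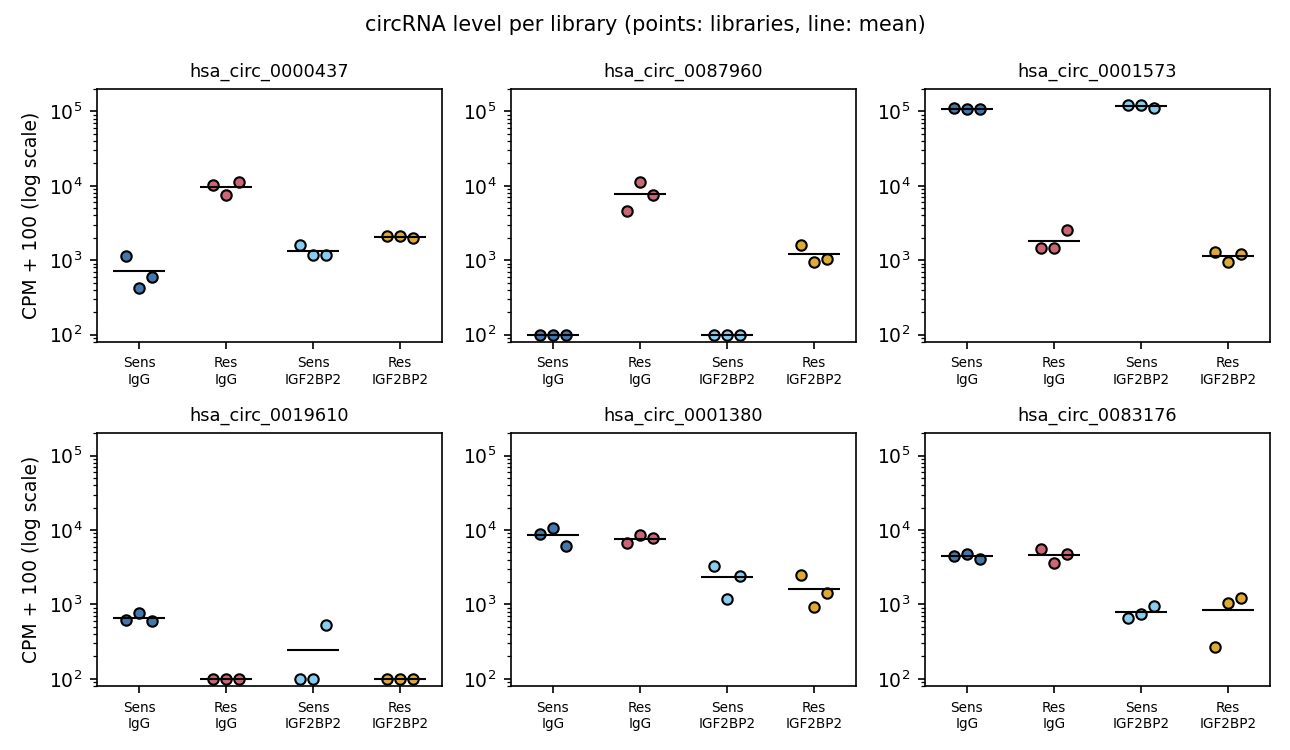
Level of 6 circRNAs in each of the 12 libraries, as CPM plus 100 on a log scale (y axis), by group (x axis). IgG and IGF2BP2 libraries were scaled in separate fits. Points are libraries and lines are means. hsa_circ_0001573 is high in all 6 Sens libraries and low in all 6 Res libraries, while hsa_circ_0001380 and hsa_circ_0083176 overlap between lines.

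In all, 96 circRNAs had at least 1 count in every IgG library. They include 2 that reached the filter's 2 counts in Res alone and 1 that did so in Sens alone, and these 3 are among the calls. Of the 96, 21 were called higher in Res, 14 lower and 61 not called, so 36.5% were called against 89.8% of all tested. The 21 had a median log2 fold change of 1.87 (0.88 to 4.08) and the 14 a median of -1.79 (-5.91 to -0.76). The 61 without a call had log2 fold changes of -1.32 to 1.35 with a median SE of 0.59, a range that overlaps that of the called circRNAs. Across the 96, summed counts in the 2 lines were weakly related (Pearson's r = 0.24 on log2 counts, Spearman's rho = 0.28). That relation is across circRNAs of the same libraries, which are not independent replicates. The direction of the calls in this set depended on scaling. Column totals gave 11 higher and 48 lower, and ERCC totals gave 30 and 6. The median log2 fold change of the 96 was 0.01 with TMM, -0.98 with column totals and 0.61 with ERCC totals. Of the 35 calls, 17 kept call and direction under these scalings and DESeq2's size factors, 11 higher and 6 lower. Of all 722 calls, 699 did, 504 higher and 195 lower. Those that reached the filter through 1 line alone had to differ, and all of them did. Of the other 45 calls, 22 did, 12 higher and 10 lower.

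Depth also moved the split. Thinned to 1960 counts per library, 125 circRNAs were higher and 163 lower in Res of 369 that still passed the filter, so that 43.4% of calls were higher in place of 71.5%. With a filter that no single group can meet, at least 1 count in 4 of the 6 libraries, 37 were higher and 16 lower of 152.

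The ERCC transcripts give a reference within the same 6 libraries, since they come from the added mix and not from the cells. In Sens IgG they took 97.8% ± 0.0255 of all counts, and in Res IgG 93.6% ± 0.151 (SD, n = 3 each). Tested in the same way with their own totals, 26 of 56 (46.4%) were called between the lines, 12 higher (21.4%) and 14 lower (25%) in Res (edgeR). The count was 14 without Res IgG replicate 3. Abundant ERCC transcripts differed little: of 22 with at least 100 counts in every library 7 were called, and the largest difference was 0.37 on the log2 scale. Some scarce ones were counted in 1 line only. ERCC-00034 was counted 21, 23 and 32 times in Sens IgG and 0, 0 and 0 times in Res IgG (adjusted p = 0.0014, edgeR). ERCC-00033 was counted 0, 0 and 0 times in Sens IgG and 5, 8 and 7 times in Res IgG (adjusted p = 0.00064, edgeR). Both reached the filter through 1 line alone, so they too had to differ. In all, 6 ERCC transcripts were in every Sens library and in no Res library, and 3 were the reverse. With at most 20 summed counts, all 6 ERCC transcripts tested and 517 of 555 circRNAs were at 0 in 1 line. With 21 to 50 counts, 2 of 6 ERCC transcripts (33.3%) and 135 of 206 circRNAs (65.5%) were. Above 50 counts it was 1 of 44 (2.27%) and 7 of 43 (16.3%). The filter acts on both sets. What the ERCC differences share with the circRNA calls was not tested.

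The IGF2BP2 libraries offer the same line comparison without sharing a library with IgG. There, 608 circRNAs passed the same filter and 26 (4.28%) were called, 15 higher (2.47%) and 11 lower (1.81%) in Res. The count depended on single libraries, at 4 without Sens IGF2BP2 replicate 1, 7 and 8 without Res replicate 1 and Sens replicate 2, 13 without Sens replicate 3 or Res replicate 2, and 17 without Res replicate 3. Of the 516 circRNAs higher in Res IgG, 123 were tested with IGF2BP2, and 6 were called higher and 1 lower. Of the 206 lower in Res IgG, 44 were tested, and 3 were called lower and 1 higher. Of the 203 circRNAs tested with both antibodies, 167 (82.3%) were called with IgG, 15 (7.39%) with IGF2BP2 and 11 with both. The 11 were 6.59% of the 167 and 73.3% of the 15, each below the share called among all 203. The median log2 fold change with IGF2BP2 was 0.21 for the 123 (quartiles -0.41 and 0.88) and -0.33 for the 44 (quartiles -0.82 and -0.03). Over all 608 it was 0.15 (quartiles -0.43 and 0.91).

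Many circRNAs missing from one line's IgG were present in that line's IGF2BP2 libraries. Of the 480 called higher in Res with 0 counts in Sens IgG, 233 (48.5%) had counts in Sens IGF2BP2 and 279 (58.1%) in Res IGF2BP2. Of the 179 called lower with 0 counts in Res IgG, 95 (53.1%) had counts in Res IGF2BP2 and 93 (52.0%) in Sens IGF2BP2. Of the 82 circRNAs tested and not called with IgG, 78.0% had counts in Sens IGF2BP2 and 79.3% in Res IGF2BP2. Of all 6384 circRNAs of the series, more were detected with IGF2BP2 in Res (4274) than in Sens (3487). Each share given for the 480 and the 179 lay below the share of the same IGF2BP2 group over all 6384. Only 1565 of the 6384 had a count with IgG, so the others could be detected with IGF2BP2 alone. That raises the shares over all 6384, so the lower shares of the 480 and the 179 cannot show depletion from IGF2BP2. No test was made of these shares. Another 164 of the 480 and 59 of the 179 had no IGF2BP2 count in either line. In each line a circRNA at 0 may still be present below about 3 counts in a group.

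**Figure D5:**
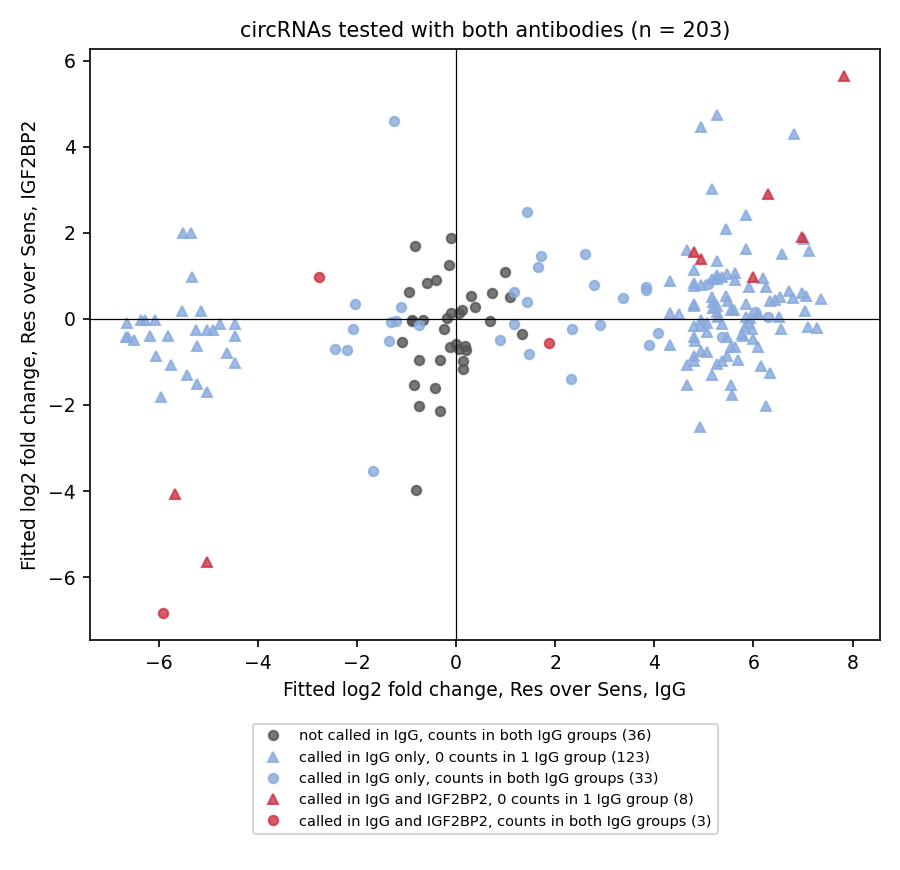
Fitted log2 fold change of Res over Sens with IGF2BP2 (y axis) against the same with IgG (x axis) for the 203 circRNAs tested with both antibodies. Triangles have 0 counts in 1 IgG group, so their x value depends on edgeR's prior count and is no measured fold. The IgG values form separate clouds on both sides of 0, while most IGF2BP2 values lie between -2 and 2, and 11 circRNAs were called with both.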

How the data were processed

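Each deposited column holds the raw counts of 1 library, per circRNA and per ERCC transcript, and was matched to its sample by library name. Per the submitters' processing notes the genome build was GRCh37. Which aligner and circRNA caller were run and what counts as a circRNA read are not given in the sources used here. Per the labels' protocols the authors scaled to the spike-in with RUVSeq, which the deposited counts do not carry. ERCC rows stayed out of circRNA library sizes and tests. circRNA totals were 1960 to 6036 per IgG library. In a single library an undetected circRNA may have up to 3 counts, 0.0497% to 0.153% of its circRNA counts. The fold bounds above instead use 3 counts over the 3 libraries of a group, a tighter limit. Such limits cover counting error alone, because reads that lack molecular identifiers cannot be counted as molecules.

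The quasi-likelihood test was that of edgeR 4.0.16 (R 4.3.3), with TMM, 1 fit per antibody and no block. In the IgG fit the prior degrees of freedom came out infinite, which pools the spread over all circRNAs. Alternatives were DESeq2 1.42.0, limma-voom (limma 3.58.1), other scalings and filters, thinning, a replicate block and left-out libraries. The scripts were first run on simulated counts. Named circRNAs were, per direction, those of lowest p with counts in all 6 libraries and with 0 counts in the lower group, groups not overlapping, and the 2 most abundant uncalled ones present in all 6. The comparison, lists and tests were chosen with earlier results of these data known. No identifier matched the gene table.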

Additional observations from a re-analysis of the deposited data

Results flagged for a closer look

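The line difference of hsa_circ_0000437 was larger with IgG than with IGF2BP2. In a fit of all 12 libraries the IgG difference exceeded the IGF2BP2 difference by 3.16 on the log2 scale (interaction, adjusted p = 0.00015, edgeR). This circRNA was chosen for its low p in the same IgG libraries. The excess may therefore be overstated, and its p is not given as support. For the other 5 circRNAs described above the interaction was not called, and for the 2 of them at 0 counts in an IgG group the fitted value is no bound.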

How the results depend on the processing

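The number of calls between the IgG groups moved by over 1.5 times with the filter and with thinning. With no filter edgeR called 1290 circRNAs, 982 of them higher in Res. With at least 5 counts in 3 libraries it called 184 (125 higher, 59 lower), with at least 10 counts 40 (28 and 12), and with at least 1 count in 4 libraries 53 (37 and 16). Thinned libraries gave 288, with 125 higher. Fewer circRNAs are tested under the last 4. Other scalings, DESeq2, limma-voom, the older deviance, a robust prior and all 12 libraries in 1 fit gave 699 to 752 calls. Leaving out each IgG library gave 717 to 723 calls, 514 to 516 higher and 201 to 208 lower. The fits with other scalings, other tools or left-out libraries all took the same 804 circRNAs. Most of these reached the filter through 1 line alone and had to differ. Of the other 127, the main fit called 24 higher and 21 lower, and DESeq2 19 and 11. Column totals gave 12 and 63, ERCC totals 37 and 10, and limma-voom 31 and 29. Without single IgG libraries 40 to 46 of the 127 were called. ERCC calls ranged from 14 to 27 without single libraries. IGF2BP2 calls ranged from 4 to 17 without single libraries and were 54 with ERCC totals; the cause was not tested.

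With the replicate number as a block, edgeR called 677 circRNAs between the IgG groups (488 higher, 189 lower) and 5 in place of 26 between the IGF2BP2 groups. Deviations of same-numbered IgG libraries correlated at -0.11, -0.03 and -0.06, so the numbers are not taken to pair them.

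The uncalled circRNAs changed sign. hsa_circ_0001380 went from -0.13 to 0.49 with ERCC totals and ranged from -0.35 to 0.048 without single libraries. hsa_circ_0083176 went from 0.06 to -0.93 with column totals and -0.065 without hsa_circ_0001573, an alternative chosen after seeing the data, and ranged from -0.18 to 0.10 without single libraries. The ratios of library measures kept their direction and moved by less than 1 SD under every alternative run on them.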

Other observations

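In 5 circRNAs the counts were exactly 2 in every library of 1 IgG group and 0 in the other. Their p-values began at rank 5 of the 804, ahead of most circRNAs with more counts, and their adjusted p was at most 7.95e-14 (edgeR). With edgeR's older deviance on the same counts it was 0.0042 to 0.0048. The number of calls was 722 with either.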
